A study of Mus musculus with 2 samples.

Results

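Osteoclast-like myeloid cells are macrophage-lineage cells that carry the program of the bone-resorbing osteoclast, and in some pancreatic cancers they form giant cells inside the tumor. They were taken here as cells with at least 3 unique molecular identifiers (UMIs, each 1 captured RNA molecule) of Acp5, which encodes tartrate-resistant acid phosphatase, at least 3 UMIs of Ctsk, which encodes the collagen-degrading protease cathepsin K, and at most 2 UMIs of Krt8, Krt18 and Cdkn2a together, which limits tumor cells and droplets holding a tumor cell. A cell also needed at least 1000 UMIs, at least 200 genes and at most 5% mitochondrial UMIs. In all, 234 of 36642 cells met the rule, 126 of 18828 in the iIRE library and 108 of 17814 in the control library. The cells were thus chosen by their own UMIs of these genes, whose levels are given below as a description only. The cells were set against 1571 macrophages of the same libraries, 762 in iIRE and 809 in control, which had C1qa, C1qb and C1qc at 0.3% of UMIs or more and no Acp5 UMI, so that Acp5 and the C1q genes are no finding between them either. The macrophages had no limit on Krt8, Krt18 and Cdkn2a.

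The libraries came from orthotopic pancreatic tumors grown from the KPC line FC1199, a mouse pancreatic ductal adenocarcinoma line with mutant Trp53, in the pancreas of young male C57BL/6 mice. The iIRE tumors were treated by insufficient irreversible electroporation, in which short high-voltage pulses between needles ablate only a portion of the tumor, and the residual tissue was taken 3 days later. The control tumors were described both as untreated and as needled without pulses. Single cells were captured with 10x Genomics 5′ chemistry and 1 library was made per group from an unstated number of mice, so treatment, animal and library cannot be told apart, and the 95% intervals below reflect counting error alone. Both groups share a single implanted line, so neither models a tumor that arose in the pancreas.

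Osteoclasts arise when monocyte-lineage precursors receive macrophage colony-stimulating factor through the receptor Csf1r and RANKL through the receptor RANK (Tnfrsf11a), with a co-stimulatory signal from receptors such as Oscar that pair with the adaptors Fcer1g and Tyrobp. The transcription factor Nfatc1 then turns on the genes of the mature cell: fusion proteins such as Dcstamp and Ocstamp, the vacuolar proton pump that acidifies the space under the cell, and the enzymes that digest matrix there. Genes that keep the precursor a macrophage, among them Irf8, restrain this program.

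The label was checked against 16 osteoclast markers, of which 14 took no part in the rule. Osteoclast-like cells had UMIs of a median of 8 of these 14 in iIRE and 9 in control. In iIRE, 71 of 126 cells had at least 8 of them and in control 71 of 108, while no macrophage in either library had more than 5. A UMI of Tyrobp, a myeloid adaptor, was present in 231 of the 234 cells. UMIs of Y-linked genes, which the male hosts carry, summed to 92.7 CPM (UMIs of a gene scaled to the same total for every class and library) in iIRE and 89.4 CPM in control, near the 97.6 CPM and 98.6 CPM of macrophages and against 1.60 CPM in the tumor cells of the iIRE library. The markers thus fit an osteoclast-like myeloid cell, but a droplet does not show the number of nuclei, so whether these cells were giant cells was not measured.

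A few cells went against the label. In iIRE, 1 cell had no Tyrobp UMI and 2200 UMIs of collagen genes among 31841, and 1 cell had 217 C1q UMIs beside 329 Acp5 UMIs and 12 of the 14 markers. In control, 2 cells had 99 and 101 C1q UMIs with only 3 Acp5 UMIs each, and 2 cells of 1234 and 2332 UMIs had no Tyrobp UMI. These 6 cells were kept, and ratios of iIRE over control that lost their call without them are given with and without them. Markers of other cell types were low in the rest. Of 10 fibroblast markers, 10 had UMIs in iIRE and 8 in control, with summed levels of 1398 CPM in iIRE and 48.5 CPM in control. The iIRE sum lay largely in the collagen-rich cell, which held 97.9% of the Col1a1 UMIs of that group. The 10 tumor epithelial markers summed to 23.9 CPM in iIRE and 37.7 CPM in control osteoclast-like cells, against 608 CPM and 635 CPM in macrophages. Krt8, Krt18 and Cdkn2a are among these 10, and the rule limited them in osteoclast-like cells but not in macrophages. This contrast was thus set by the rule and is no finding. All 6 red cell markers were at 0 in osteoclast-like cells of both libraries, and 9 of 10 T and natural killer cell markers were at 0 in iIRE and 8 in control.

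Osteoclast-like cells held more RNA than macrophages. They held a median of 13712.5 UMIs in iIRE, with a range of 1051 to 31841, and 14388 in control, with a range of 1234 to 30782, against 5646 and 6817 in macrophages. Their median number of genes was 3616.5 in iIRE and 3541.5 in control, against 2097.5 and 2277 in macrophages. At least 10000 UMIs were found in 79.4% of osteoclast-like cells in iIRE and 82.4% in control, against 15.6% and 21.6% of macrophages. C1q macrophages with 1 or 2 Acp5 UMIs, left out of the comparison, had medians of 7490.5 UMIs in iIRE and 10021.5 in control. Cells with at least 3 Acp5 but at most 2 Ctsk UMIs had 11398 and 12990, so high depth was not particular to the osteoclast-like cells. A cell that holds more RNA reaches 3 UMIs of a gene more easily, and a cell that holds less has no Acp5 UMI more easily. The part of both in the depth difference was not tested. The libraries shared 458 cell barcodes overall and none among the osteoclast-like cells.

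Acp5 had between 3 and 329 UMIs per cell in iIRE, with a median of 102.5, and between 3 and 355 in control, with a median of 148. Ctsk had between 3 and 458 UMIs in iIRE, with a median of 112, and between 4 and 529 in control, with a median of 183.5. Most cells therefore lay far above the threshold of 3, and few stood next to it. Just inside were 6 cells with exactly 3 UMIs of either gene, 4 in iIRE and 2 in control, whose counts ran up to 93 Acp5 and 16 Ctsk UMIs. Just outside were 10 cells with exactly 2, 7 in iIRE and 3 in control, with up to 51 Acp5 and 11 Ctsk UMIs, of which 70.0% had a Tyrobp UMI. Scaled to depth, single cells spanned 126 to 25082 CPM of Acp5 in iIRE with a median of 6250, and 219 to 26214 CPM in control with a median of 10285. Acp5 and Ctsk went together across cells, with Spearman's rho of 0.68 over the 126 iIRE cells and 0.75 over the 108 control cells, which within a library share its free RNA and depth.

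**Figure D1:**
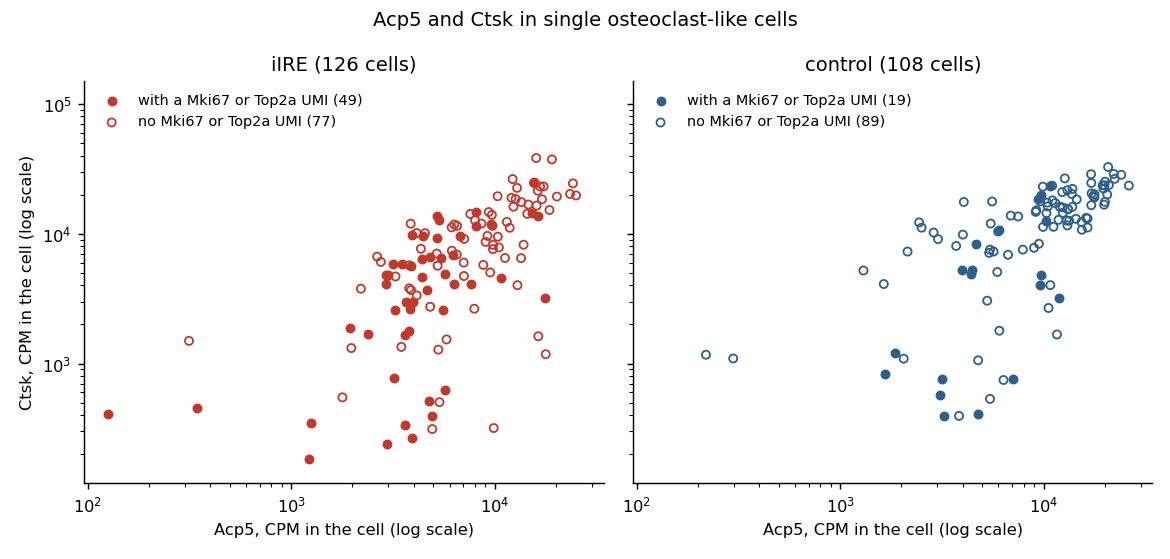
Each point is 1 osteoclast-like cell, with its Acp5 level in CPM on the horizontal log axis and its Ctsk level in CPM on the vertical log axis, for 126 iIRE cells (left) and 108 control cells (right). Filled points had a UMI of Mki67 or Top2a, 49 in iIRE and 19 in control, and they lie toward lower Acp5, while a dense group above 10000 CPM of Acp5 holds 37 iIRE and 55 control cells.

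The keratin limit decided how many cells were counted. In all, 625 cells had at least 3 UMIs of both genes, and the limit removed 391 of them, 139 in iIRE and 252 in control. The removed cells had medians of 5 Acp5, 6 Ctsk and 20 keratin or Cdkn2a UMIs, against medians of 119.5 Acp5 and 131 Ctsk UMIs in the cells kept. Among tumor cells, taken here as the background, 15.8% in iIRE and 15.6% in control had an Acp5 UMI and 11.7% and 13.3% a Ctsk UMI, at median depths of 13691 and 15849 UMIs. Whether tumor cells transcribe these genes was not tested. The summed Acp5 level of tumor cells was 13.2 CPM in iIRE and 12.1 CPM in control. Of the 391 removed cells, 36 carried at least 8 of the 14 other osteoclast markers.

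The promoters of a few of these genes are shown because the genes were high together in the same cells and the factors above are known to act through short motifs. The windows run from 250 bases before to 50 after a start site and are from RefSeq on GRCm38.p6. The 14 genes looked up were Acp5, Ctsk, Mmp9, Atp6v0d2 and Nyap2 and the 12 genes highest relative to macrophages, which overlap, with Oscar added by name. Of these 14 genes, 9 had a window, and Atp6v0d2, Kbtbd11, Mmp9, Nfatc1 and Ocstamp had none. Acp5 lies at chr9:22130549-22130848 on the minus strand, the window of 1 of its 3 start sites, Ctsk at chr3:95498960-95499259 on the plus strand, Oscar, the co-stimulatory receptor, at chr7:3616108-3616407 on the minus strand and Rufy4, a gene of vesicle trafficking, at chr1:74125291-74125590 on the plus strand. Capitals mark the letters TCATGTG (an E-box of the Mitf type), TGANTCA (AP-1), TGGAAA (the NFAT core) and GAGGAA (the PU.1 core) on either strand, and none of these motifs was required to be clear of another.
Acp5: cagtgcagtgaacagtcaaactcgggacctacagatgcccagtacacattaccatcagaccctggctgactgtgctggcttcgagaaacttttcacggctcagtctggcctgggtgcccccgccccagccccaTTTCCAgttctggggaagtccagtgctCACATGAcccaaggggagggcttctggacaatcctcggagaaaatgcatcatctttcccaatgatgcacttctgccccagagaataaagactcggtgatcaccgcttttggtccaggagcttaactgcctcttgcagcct
Ctsk: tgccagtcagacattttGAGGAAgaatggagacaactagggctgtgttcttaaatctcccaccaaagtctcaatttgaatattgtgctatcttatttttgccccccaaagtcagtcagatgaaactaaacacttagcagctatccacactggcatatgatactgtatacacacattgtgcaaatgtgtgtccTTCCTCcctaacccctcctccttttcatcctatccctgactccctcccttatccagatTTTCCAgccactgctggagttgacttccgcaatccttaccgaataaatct
Oscar: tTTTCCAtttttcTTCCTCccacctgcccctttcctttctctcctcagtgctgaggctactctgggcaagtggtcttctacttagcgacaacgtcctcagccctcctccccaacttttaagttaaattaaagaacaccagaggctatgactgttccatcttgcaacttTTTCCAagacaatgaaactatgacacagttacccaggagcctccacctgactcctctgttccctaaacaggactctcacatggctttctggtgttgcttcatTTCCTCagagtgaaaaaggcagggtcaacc
Rufy4: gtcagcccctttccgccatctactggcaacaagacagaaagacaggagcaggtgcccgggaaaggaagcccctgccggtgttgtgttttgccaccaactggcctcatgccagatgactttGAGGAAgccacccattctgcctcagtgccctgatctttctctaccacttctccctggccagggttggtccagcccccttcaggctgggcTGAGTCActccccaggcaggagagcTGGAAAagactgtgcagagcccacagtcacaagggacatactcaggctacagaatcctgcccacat
Of the 3 Acp5 windows, the one printed was chosen because it holds the Mitf-type letters. Their place, 90 bases before that start, is thus no finding. A gene was counted if any of its windows held a motif, whereas the background is per single window. The Mitf-type letters were in 1 of the 9 genes, against 3.77% of all 32851 promoter windows. The NFAT core stood in 7 of the 9 genes, against 21.4% of all windows, the PU.1 core in 4, against 28.3%, and AP-1 in 1, against 7.81%. Acp5 and Ctsk, which chose the cells, and Oscar are among the 7 genes with the NFAT core. As the genes were picked, the counts do not test enrichment over the background. All are matches of letters, and no binding was measured.

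The share of osteoclast-like cells was close in both libraries. They were 0.669% of all cells in iIRE, with an exact binomial interval of 0.558% to 0.796%, and 0.606% in control, with an interval of 0.498% to 0.732%, so the intervals overlapped. For each 100 macrophages there were 16.5 osteoclast-like cells in iIRE and 13.3 in control. The direction turned with the keratin limit: without it the shares were 1.41% in iIRE and 2.02% in control.

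The osteoclast markers outside the rule set these cells apart from macrophages. Levels below are CPM after adding up the UMIs of all cells of 1 class within 1 library, and a ratio is the log2 ratio of CPM + 10, which understates differences of low genes. Across 10540 genes with at least 50 UMIs, leaving out the 8 genes of the rule, 450 (4.27%) were at least 2-fold higher in osteoclast-like cells than in macrophages in both libraries and 898 (8.52%) at least 2-fold lower, with a median ratio over all genes of 0.00 in iIRE and -0.05 in control. With 1 library per group these are counts of folds without a test. The keratin limit held for osteoclast-like cells alone, which can place genes of tumor cells among the lower ones. With no keratin limit 394 genes were higher and 590 lower. Of the 14 other osteoclast markers, 13 had enough UMIs, and 13 were higher in both libraries, with median ratios of 2.82 in iIRE and 2.93 in control.

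Acp5 (chromosome 9, 22126727 to 22135711 in mm10, GENCODE) had 7255 CPM in iIRE and 10420 CPM in control osteoclast-like cells, and by the rule none in macrophages. Ctsk (chromosome 3, 95499256 to 95509362) had 8115 CPM in iIRE and 12268 CPM in control, against 7.11 CPM and 3.46 CPM in macrophages. Mmp9 (chromosome 2, 164940780 to 164955850), a gelatinase that osteoclasts secrete, had 3916 CPM in iIRE and 6226 CPM in control, against 5.73 CPM and 15.6 CPM in macrophages, with ratios of 7.96 in iIRE and 7.93 in control. Mmp9 was the gene with the highest ratio that the rule had not used. It was nonetheless uneven: single cells ran from 0 to 36055 CPM in iIRE with a median of 2374, and from 0 to 23175 CPM in control with a median of 5645, and 91.3% and 91.7% of cells had a UMI. Mmp9 followed Ctsk across cells, with rho of 0.72 in iIRE and 0.81 in control.

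Of the 11 resorption enzymes tested, 3 were higher in both libraries, namely Mmp9, the membrane-bound matrix metalloproteinase Mmp14, with ratios of 1.69 in iIRE and 2.03 in control, and carbonic anhydrase Car2, which makes the protons that the pump exports, with 2.79 and 2.81. Another 4, the general lysosomal cathepsins, were lower, and the median ratio of the 11 was -0.83 in iIRE and -1.43 in control. Ctsb had 666 CPM in iIRE and 727 CPM in control osteoclast-like cells, against 2523 CPM and 2196 CPM in macrophages, and Ctsd, Ctsl and Ctss had ratios between -1.33 and -2.50. The lysosomal membrane proteins Lamp1 and Lamp2 were low as well, at ratios of -2.59 and -2.27 in iIRE and -2.92 and -2.49 in control.

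The vacuolar proton pump was high as a complex. Of 18 subunits tested, 12 were at least 2-fold higher in both libraries and 1 was lower, and the list's median ratio was 1.59 in iIRE and 1.90 in control. Atp6v0d2 (chromosome 4, 19876841 to 19922605), the d subunit that osteoclasts use, had 918 CPM in iIRE and 1263 CPM in control, against 6.13 CPM and 8.97 CPM in macrophages, with ratios of 5.85 and 6.07. Its widely expressed counterpart Atp6v0d1 had 146 CPM in iIRE and 156 CPM in control, against 164 CPM and 150 CPM in macrophages. The a subunits split in the same manner. Tcirg1, which encodes the a3 subunit of the osteoclast pump, had 497 CPM in iIRE and 624 CPM in control, against 142 CPM and 130 CPM, whereas Atp6v0a1, the single subunit that was lower, had 11.4 CPM and 8.94 CPM, against 84.0 CPM and 75 CPM. Among the shared subunits Atp6v1b2 had ratios of 2.91 in iIRE and 3.36 in control and Atp6v0c, the most abundant, 1.73 and 2.01.

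Transport around the pump followed. Of 11 acid and vesicle transport genes tested, 5 were higher in both libraries and 2 were lower, the Lamp genes given above. Slc9b2 (chromosome 3, 135307700 to 135345387), a sodium-proton exchanger known from osteoclasts, had 583 CPM in iIRE and 851 CPM in control, against 0.988 CPM and 0.944 CPM in macrophages. Slc37a2, a sugar-phosphate transporter of resorptive vesicles, had ratios of 3.37 in iIRE and 3.98 in control, and Snx10, a sorting nexin needed for the ruffled border, 2.33 and 3.03. The bicarbonate-chloride exchanger Slc4a2, which removes the base left by acid secretion, had 2.26 and 2.74, and the chloride channel Clcn7 1.11 and 1.39.

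The energy genes were high together. Of 15 genes of creatine kinase and mitochondrial energy that were tested, 14 were at least 2-fold higher in both libraries, with medians of 1.73 in iIRE and 1.90 in control. Ckb, brain-type creatine kinase, which supplies ATP to the pump, had 640 CPM in iIRE and 1111 CPM in control, against 144 CPM and 137 CPM in macrophages. Ppargc1b, a coactivator of mitochondrial biogenesis in osteoclasts, had 136 CPM and 190 CPM, against 6.92 CPM and 5.51 CPM. Idh3a of the citric acid cycle had ratios of 1.98 and 2.09 and Atp5b of the ATP synthase 1.78 and 1.88.

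**Figure D2:**
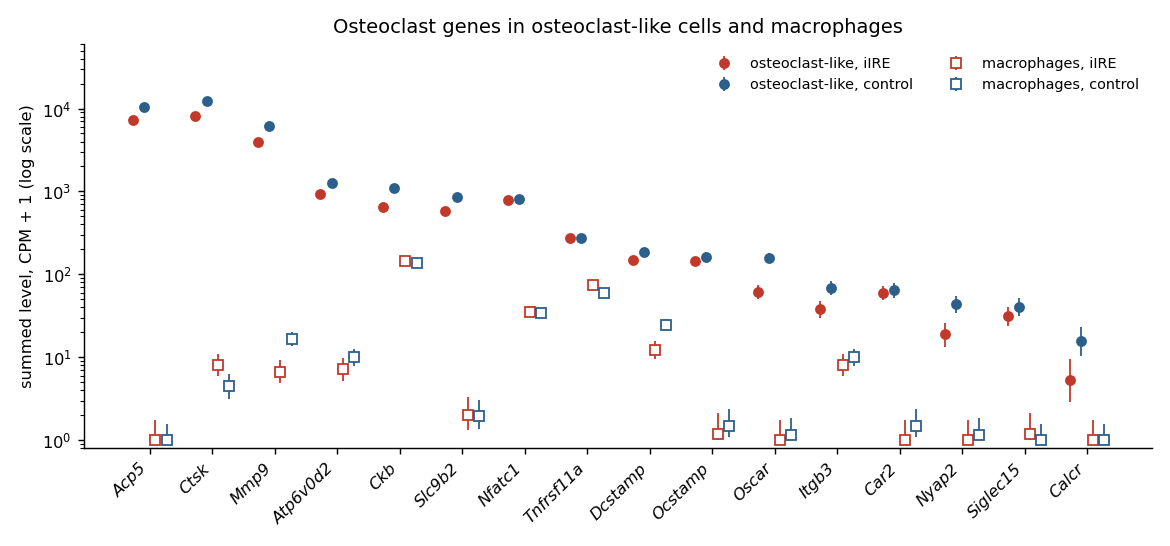
Summed level of the 16 osteoclast markers on a log axis of CPM + 1, with osteoclast-like cells as filled circles and macrophages as open squares, iIRE in red and control in blue, and bars showing exact Poisson 95% intervals. Acp5 and Ctsk chose the cells; Mmp9, Atp6v0d2, Slc9b2 and Nfatc1 stand highest among the markers the rule did not use together with Ckb, and Nyap2, Siglec15 and Calcr lowest.

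Fusion genes were present, though the outcome of fusion was not measured. Of 13 tested, 8 were higher in both libraries and 1, the tetraspanin Cd81, was lower. Dcstamp had 147 CPM in iIRE and 187 CPM in control, against 11.3 CPM and 23.6 CPM in macrophages, and Ocstamp 144 CPM and 162 CPM, against 0.198 CPM and 0.472 CPM. Myo10, an unconventional myosin, had ratios of 2.57 in iIRE and 2.68 in control, the tetraspanin-like Tm4sf19 1.77 and 1.47, and the integrin chain Itgav 1.59 and 1.83. In the podosome and sealing zone list 4 of 16 genes were higher, namely Itgav, its partner Itgb3 with 1.47 and 2.03, the kinase Src with 2.18 and 2.17, and Nyap2, and 1 was lower, the podosome adaptor Sh3pxd2b with -1.02 and -1.07.

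Nyap2 (chromosome 1, 81076950 to 81341764), which encodes a phosphoprotein that binds phosphoinositide 3-kinase in neurons, was sparse. It had 33 UMIs or 17.9 CPM in iIRE, with an interval of 12.3 to 25.1 CPM, and 67 UMIs or 42.8 CPM in control, with an interval of 33.2 to 54.3 CPM. In macrophages it had 0 UMIs in iIRE, which makes the iIRE level at least 30.2-fold higher than 3 UMIs over all those macrophages, and 1 UMI in control. A Nyap2 UMI was seen in 19.0% of iIRE and 24.1% of control osteoclast-like cells, or 5.65% and 8.91% after each cell was thinned to 3000 UMIs, against 0.0651% and 0.0934% of tumor cells at their own depth. Thinning left out 2 iIRE and 7 control cells of lower depth.

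Among 13 receptors and adaptors tested, 5 were higher in both libraries and 1, Fcer1g, was lower. Tnfrsf11a, the RANK receptor, had 270 CPM in iIRE and 271 CPM in control, against 73.5 CPM and 58.5 CPM in macrophages. Oscar had 60.7 CPM in iIRE and 158 CPM in control, and macrophages held 0 UMIs and 1 UMI of it. Siglec15, a sialic-acid receptor of osteoclast precursors, had 30.4 CPM and 39.6 CPM, and macrophages held 1 UMI and 0 UMIs; Itgav and Itgb3 were the remaining ones. The growth factor receptor shared with macrophages, Csf1r, was similar, with 716 CPM in iIRE and 860 CPM in control, against 571 CPM and 649 CPM, as was Tyrobp with 2673 CPM and 3378 CPM, against 2416 CPM and 2267 CPM. Calcr, the calcitonin receptor of mature osteoclasts, was rare: 8 UMIs in 5.56% of iIRE cells and 23 UMIs in 9.26% of control cells. Tnfsf11, which encodes RANKL, was at 0 in the osteoclast-like cells of both libraries.

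Of 21 transcription factors tested, 6 were higher in both libraries, and the list's median ratio was -0.25 in iIRE and -0.23 in control. Nfatc1 (chromosome 18, 80606205 to 80713071) had 777 CPM in iIRE and 807 CPM in control, against 34.6 CPM and 33.2 CPM in macrophages, and single cells had a median of 732 CPM in iIRE and 738 CPM in control. Tumor cells held 49.9 CPM and 47.5 CPM of it. Prdm1, which silences the anti-osteoclastic genes, had 306 CPM and 345 CPM, against 30.8 CPM and 29.9 CPM. Ppargc1b, Fosl2, Mitf and Spi1, the PU.1 gene, had ratios between 1.01 and 3.69, with Spi1 next to the 2-fold limit. The zinc finger factor Hivep3 and the AP-1 gene Junb were lower, at -2.34 and -1.21 in iIRE and -2.26 and -1.08 in control. The genes that restrain the program went the other way, and 7 of 11 were lower with none higher: Irf8 had 8.13 CPM in iIRE and 5.11 CPM in control, against 123 CPM and 147 CPM in macrophages, and the inhibitory receptor Lilrb4a had ratios of -3.72 and -3.66.

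**Figure D3:**
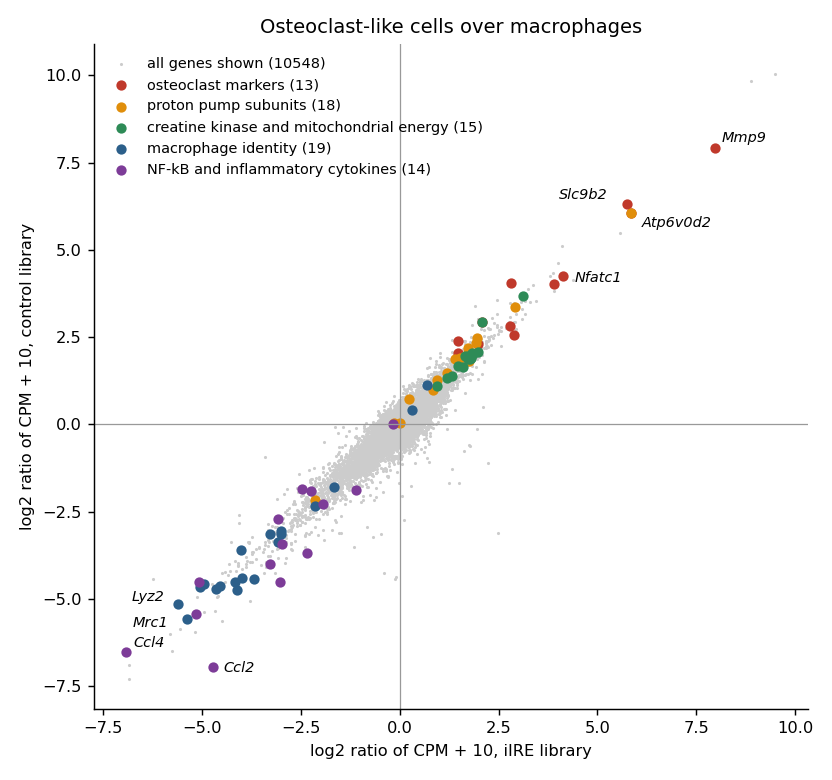
Each point is a gene, with the log2 ratio of CPM + 10 of osteoclast-like cells over macrophages in the iIRE library on the horizontal axis and in the control library on the vertical axis. Grey points are all genes, and the gene lists with their tested members are in color: osteoclast markers and pump subunits lie to the upper right, macrophage identity and inflammatory genes to the lower left, and the libraries give close values.

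Macrophage identity was low in osteoclast-like cells, beyond the C1q genes that chose the macrophages. Of 19 other macrophage identity genes tested, 17 were lower in both libraries, with medians of -4.0 in iIRE and -4.40 in control. Lyz2, lysozyme, had 153 CPM in iIRE and 237 CPM in control, against 7955 CPM and 8751 CPM in macrophages, and the mannose receptor Mrc1 4.88 CPM and 2.55 CPM, against 612 CPM and 594 CPM. Adgre1, which encodes the F4/80 antigen, had 7.59 CPM and 3.19 CPM, against 306 CPM and 291 CPM. Apoe stayed at 1119 CPM and 1029 CPM, against 9626 CPM and 10746 CPM. Csf1r and Cd68 were the genes not lower, and Cd68, a lysosomal protein also used as an osteoclast stain, had 1104 CPM in iIRE and 1536 CPM in control, against 685 CPM and 694 CPM.

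Inflammatory genes were low as well. Of 14 NF-kB targets and inflammatory cytokines, 13 were lower in both libraries, with medians of -3.0 in iIRE and -3.55 in control, and Nfkbia was the exception at -0.17 and 0.01. Ccl4 had 2.17 CPM in iIRE and 3.19 CPM in control, against 1461 CPM and 1199 CPM in macrophages, and Cxcl2 124 CPM and 106 CPM, against 4762 CPM and 5033 CPM. The chemokines Ccl12, Ccl7 and Ccl6, the coagulation factor F13a1 and the carbonyl reductase Cbr2 were likewise among the 12 lowest ratios. Of 11 monocyte genes, 9 were lower, including Ccr2, the receptor of the recruited macrophages that the study followed, with 2.71 CPM and 3.83 CPM, against 140 CPM and 146 CPM. The exception was the calcium-binding S100a4, with 3588 CPM in iIRE and 3331 CPM in control, against 519 CPM and 428 CPM. Class II antigen presentation was lower in 6 of 7 genes, and Cd74, the invariant chain, had 218 CPM and 417 CPM, against 1619 CPM and 3538 CPM.

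Signals by which osteoclasts address other cells were mostly not higher: of 12 tested, 1 was higher in both libraries, the axon guidance ligand Sema4d with ratios of 1.58 and 1.52, and 5 were lower, among them osteopontin, Spp1, with 588 CPM in iIRE and 480 CPM in control, against 1806 CPM and 1958 CPM, and Ccl3 with 16.8 CPM and 19.2 CPM, against 473 CPM and 426 CPM. The chemokine Ccl9, abundant in osteoclasts, had 481 CPM and 416 CPM, against 385 CPM and 319 CPM. Outside the lists, the 12 genes with the highest ratios included the metallothionein Mt3, at 496 CPM in iIRE and 469 CPM in control, the mitochondrial protein Chchd10, at 463 CPM and 471 CPM, the ketone and siderophore enzyme Bdh2, at 271 CPM and 344 CPM, Kbtbd11, at 300 CPM and 510 CPM, and Rufy4, at 157 CPM and 239 CPM. Macrophages had under 10 CPM of Bdh2, Kbtbd11 and Rufy4 in both libraries. Lpl, lipoprotein lipase, was the single lipid-associated gene of 14 that was higher, with ratios of 2.89 in iIRE and 3.48 in control, and 5 were lower.

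Between the libraries, osteoclast-like cells of iIRE held more RNA of cell-cycle genes and less of several osteoclast markers. Of 6666 genes with at least 50 UMIs over the 2 libraries' osteoclast-like cells, 310 (4.65%) were at least 1.5-fold higher in iIRE and 131 (1.97%) at least 1.5-fold lower, with a median ratio of 0.04. Scaling by the median ratio over genes instead of total UMIs gave 245 higher and 178 lower. Of 18 cell-cycle genes, 16 were higher and none lower, with a median of 1.10 and a range of 0.49 to 2.10. Of the 13 osteoclast markers the rule did not use, 5 were at least 1.5-fold lower, none was higher and 13 lay below 0, with a median of -0.46. Both shares stand away from the 4.65% and 1.97% of all genes, and both come from a single pair of libraries.

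The cell-cycle genes led the list of higher genes. Ube2c, a ubiquitin-conjugating enzyme of mitosis, had 252 CPM in iIRE and 51.1 CPM in control, a ratio of 2.10 with an interval of 1.80 to 2.40, and cyclin Ccnb2 had 94.3 CPM and 21.1 CPM, a ratio of 1.75. Prc1, Cenpa and Cdca3, which act in spindle and centromere, and tubulin Tuba1b had ratios between 1.49 and 1.71. In macrophages the ratios of Ube2c and Ccnb2 were 0.68 and 0.57, and the difference between the classes was not tested. A UMI of Mki67 or Top2a was present in 38.9% of osteoclast-like cells in iIRE and 17.6% in control, against 32.3% and 27.1% of macrophages and 61.2% and 60.9% of tumor cells. The classes differed in depth. Thinned to 3000 UMIs, the shares of osteoclast-like cells were 25% in iIRE, with an interval of 17.7% to 33.6%, and 11.9% in control. The control interval was 6.29% to 19.8%, so the intervals overlapped at equal depth. At that depth macrophages had 25.7% in iIRE and 18.1% in control, and tumor cells 41.8% and 40.2%. Cells with fewer UMIs were left out of the thinned shares. With the list as a score, 54 iIRE cells and 16 control cells had at least 10 UMIs of the 18 genes, and 5 and 6 cells lay between 8 and 12 UMIs, next to that limit.

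The cells with a Mki67 or Top2a UMI had lower levels of several osteoclast markers in both libraries. Relative to the other osteoclast-like cells, Mmp9 had ratios of -1.36 in iIRE and -2.07 in control, Oscar -1.70 and -2.63, and Ckb -1.33 and -2.73. Nfatc1 differed less, with -0.22 and -0.51. Median depth was 16412 UMIs with and 12710 without such a UMI in iIRE, and 18115 with and 13678 without in control, and the part of depth in these ratios was not tested.

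Osteoclast-like cells were also split by their Acp5 level, with limits chosen after the values were seen. Acp5 chose the cells, differed between the libraries and went together with Ctsk across cells, so values within an Acp5 group are a description and do not show why the libraries differed. In iIRE 48 cells had under 5000 CPM of Acp5, 41 had 5000 to 10000 CPM and 37 had 10000 CPM or more, and in control the numbers were 25, 28 and 55. The top group thus held 29.4% of the cells in iIRE and 50.9% in control. The share of cells with a Mki67 or Top2a UMI was 62.5%, 34.1% and 13.5% from the lowest to the highest Acp5 group in iIRE and 40.0%, 21.4% and 5.45% in control. Among cells just outside the rule, with at least 3 Acp5 but at most 2 Ctsk UMIs, it was 61.3% of 106 cells in iIRE and 57.4% of 61 cells in control.

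The osteoclast genes differed in the Acp5 level at which they were found. In the cells with Acp5 but little Ctsk, Nfatc1 was already at 387 CPM in iIRE and 322 CPM in control, Atp6v0d2 at 213 CPM and 218 CPM, and C1qa was still at 792 CPM and 1588 CPM. Oscar was found late: in the lowest Acp5 group of osteoclast-like cells it had 2.63 CPM in iIRE and 3.53 CPM in control, in the middle group 49.7 CPM and 35.2 CPM, and in the top group 183 CPM and 286 CPM. Since the cells were taken at 1 time point, an order along Acp5 is not an order in time.

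**Figure D4:**
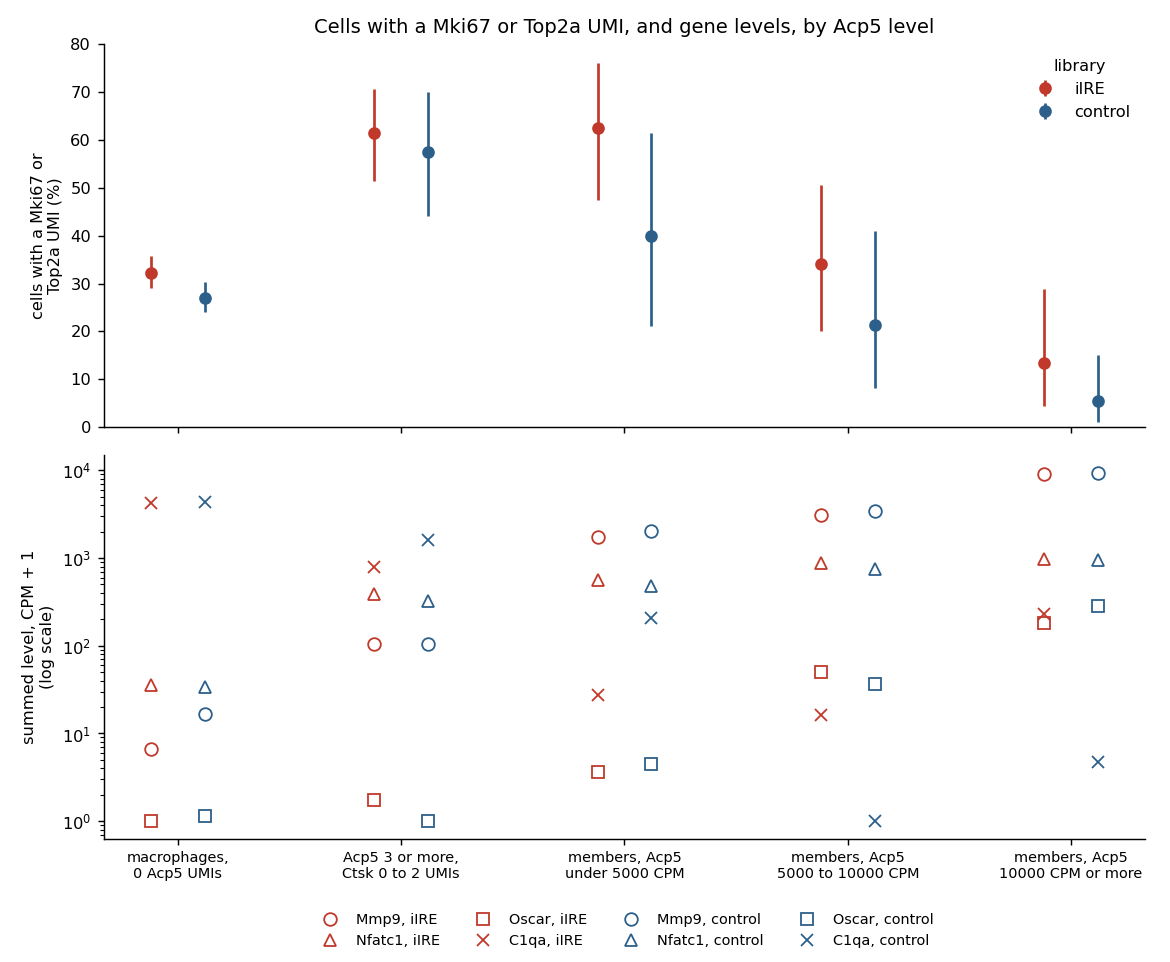
The upper panel plots the percentage of cells with a Mki67 or Top2a UMI and its exact 95% interval, and the lower panel the summed level of Mmp9, Nfatc1, Oscar and C1qa on a log axis of CPM + 1, iIRE in red and control in blue. Macrophages, cells with Acp5 but little Ctsk and osteoclast-like cells of increasing Acp5 run from left to right, along which Mmp9 and Oscar climb and the share of cells with a Mki67 or Top2a UMI falls among the osteoclast-like cells; the C1qa point of the top iIRE group and that of the lowest control group come from the 1 and the 2 cells with C1q at the macrophage level.

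Over all cells the ratios of iIRE over control were -0.60 for Ctsk, -0.67 for Mmp9, -0.79 for Ckb and -0.05 for Nfatc1. In the top Acp5 group Mmp9 had 9098 CPM in iIRE and 9416 CPM in control, Ckb 1658 CPM and 1848 CPM, and Nfatc1 987 CPM and 954 CPM, values that matching on Acp5 can itself bring together. Oscar had a ratio of -1.25 with an interval of -1.54 to -0.95 over all cells, and of -0.62 with an interval of -0.99 to -0.26 in the top group. It was also seen in fewer cells, 24.6% in iIRE and 48.1% in control, or 12.9% and 29.7% at 3000 UMIs.

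Other genes of iIRE osteoclast-like cells were low at every Acp5 level. Vegfa, the vascular growth factor, had 54.2 CPM in iIRE and 176 CPM in control, a ratio of -1.53 with an interval of -1.83 to -1.24, the lowest of all genes that met the naming rule. It was -0.91 in the lowest, -1.06 in the middle and -2.07 in the top Acp5 group, and -1.47 among cells with no Mki67 or Top2a UMI. Tumor cells held a Vegfa UMI in 83.0% of cells in iIRE and 86.6% in control, and the part of their free RNA in the level was not tested. In macrophages the Vegfa ratio was -0.43, so the direction was shared, and whether its size differed was not tested. Arg1, arginase, behaved alike, with 110 CPM in iIRE and 258 CPM in control, a ratio of -1.16, and -1.14, -1.14 and -1.67 from the lowest to the highest Acp5 group. Bnip3, like Vegfa a target of hypoxia-inducible factors, had a ratio of -1.04, but of 13 hypoxia and glycolysis genes these 2 were the members that were lower, with a list median of -0.13.

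The rest of the 10 lowest ratios were Ccn1, a matricellular protein, at -1.52, the chemokine Cxcl14 at -1.33, the myosin Myo1d at -1.23, the receptor tyrosine kinase Mst1r at -1.12, Rhof, a small GTPase of filopodia, at -1.09, the phosphatase Ptpre, which has an osteoclast role, at -1.06, and the scaffold Mpp7 at -1.05. Mst1r had 45 CPM in iIRE and 110 CPM in control, and 0 UMIs and 1 UMI in macrophages, and so, like Oscar, was nearly absent from macrophages. Unlike Vegfa it was not low at every Acp5 level. Its ratio was 1.13 in the lowest group, where control had 0 CPM, 0.26 in the middle and -0.63 in the top group. Cxcl14 had a ratio of -1.79 among cells with no Mki67 or Top2a UMI. Among the other cells it was 0.56, with an interval of -0.29 to 1.39. Among immediate early genes 5 of 14 were lower, namely Zfp36 at -0.81, Klf2 at -0.79, Jun at -0.73, Klf6 at -0.62 and Jund at -0.62, and 1 was higher, Ier3 at 1.07, which was 0.13 without the 6 cells at odds with the label. These genes respond to tissue handling in many cells, and the part of handling in these ratios was not tested. In macrophages the ratios of iIRE over control were -0.54 for Klf2, -0.51 for Jund and -0.37 for Jun. Those of Zfp36 and Klf6 are not given here.

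**Figure D5:**
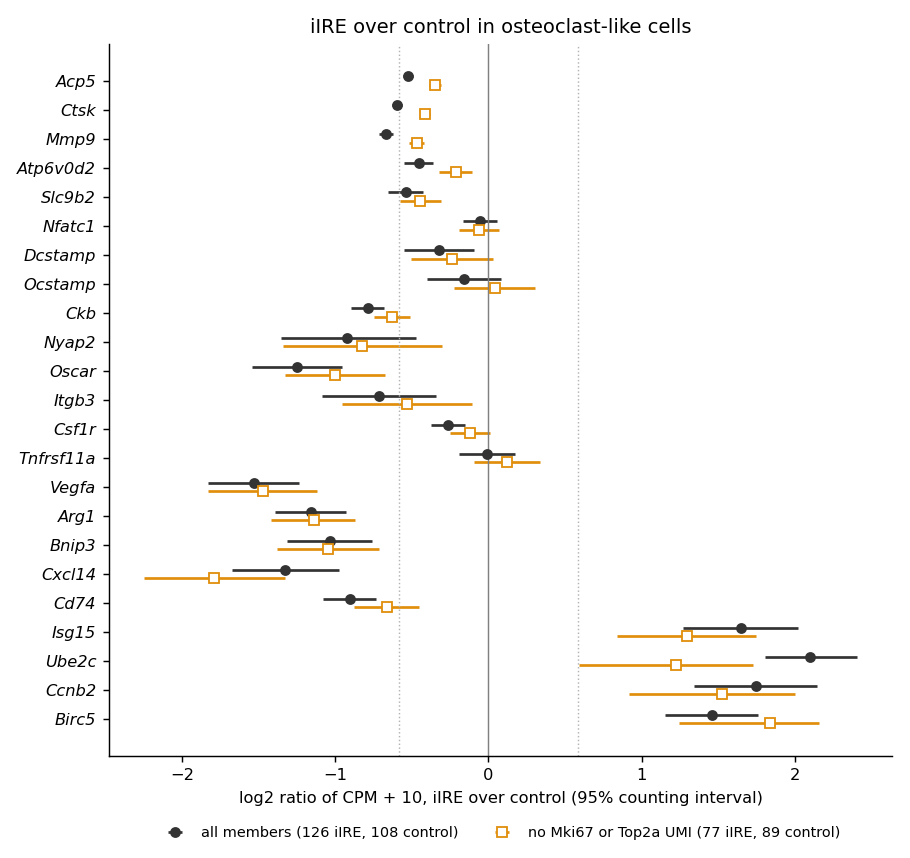
Log2 ratio of CPM + 10, iIRE over control, for named genes in all osteoclast-like cells (filled circles) and in those with no Mki67 or Top2a UMI (open squares), with 95% counting intervals and dotted lines at 1.5-fold. Most osteoclast genes lie left of 0, and Acp5, Ctsk, Mmp9 and Oscar lie nearer to it among the cells with no Mki67 or Top2a UMI, while Vegfa, Arg1 and Bnip3 stay near -1 or lower and Isg15 stays above 1.

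Interferon genes were higher in iIRE. Of 5 type I interferon response genes tested, 4 were higher and none lower, with a median of 1.04. Isg15, a ubiquitin-like protein, had 107 CPM in iIRE and 27.5 CPM in control, a ratio of 1.65 with an interval of 1.27 to 2.02, and a UMI in 44.4% and 19.4% of cells. Its ratio was 2.06, 1.5 and 1.10 from the lowest to the highest Acp5 group, and 0.14 in macrophages, whose Isg15 level was 147 CPM in iIRE and 132 CPM in control. Rtp4 had a ratio of 1.32, Irf7 1.04 and Ifi27l2a 0.68, against 0.49, 0.48 and 0.85 in macrophages. Of 6 class II genes tested, 2 were lower in iIRE osteoclast-like cells and none higher, with a median of -0.53: Cd74 had a ratio of -0.91 in osteoclast-like cells and -1.12 in macrophages, and H2-Aa -0.94 and -1.46. The Cd74 ratio was -4.48 in the lowest Acp5 group, with 21.1 CPM in iIRE and 684 CPM in control, -0.59 in the middle group and 0.59 in the top group, with 512 CPM and 338 CPM. The C1q-rich cells lie in the top group in iIRE and in the lowest group in control. Their part in these group ratios was not tested. Over all osteoclast-like cells but the 6 at odds with the label, Cd74 had 206 CPM in iIRE and 398 CPM in control.

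The remaining genes among the 10 highest ratios rested on 1 cell. Col1a1, a fibrillar collagen, had a ratio of 4.01, the collagen chaperone Serpinh1 2.31 and Col14a1 1.55, and 97.9%, 94.4% and 67.9% of their iIRE UMIs came from 1 cell. Without the 6 cells at odds with the label the ratios were -0.35 for Col1a1, -0.24 for Serpinh1 and 0.47 for Col14a1. The same exclusion left Ube2c at 2.13, Isg15 at 1.58, Vegfa at -1.58, Oscar at -1.36, Arg1 at -1.01 and Cd74 at -0.92. It raised the ratio of Cxcl2 past 1.5-fold, to 1.10, with 114 CPM in iIRE and 48.1 CPM in control. The pump subunits, the energy genes and the fusion genes had list medians of -0.30, -0.12 and -0.16, against 0.04 over all genes tested. Below 0 lay 16 of 17 pump subunits, 11 of 15 energy genes and 9 of 13 fusion genes. In each list 1 gene passed 1.5-fold lower, namely Atp6v1e1 at -0.65, Ckb, and Itgb3 at -0.71. Among fusion genes Cd81 was higher at 0.92, but only 0.38 without the 6 cells at odds with the label. Snx10, at -0.70, was the 1 lower acid transport gene.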

How the data were processed

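The deposited matrix holds raw UMI counts, made by the authors with Cell Ranger (7.0.1 in the matrix header; the methods name an earlier release) on mm10 from 10x 5′ libraries, with 32285 genes and 37971 barcodes. The library was read from the barcode ending, 1 for control and 2 for iIRE, as the library names number them. Of the columns none was left out as belonging to another sample. Cells were filtered and classed as in the report; tumor cells had at least 10 keratin UMIs and no Tyrobp. Doublets were kept, and scored against simulated pairs for an alternative, in which 2 iIRE and 0 control osteoclast-like cells were removed. The matrix holds more barcodes than the study analysed, so its doublet removal was not applied to it.

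UMIs were summed per class and library and expressed as CPM, and ratios were log2 of CPM + 10, for genes with at least 50 UMIs. For 40 symbols shared by more than 1 identifier, only the identifier with more UMIs was kept. Osteoclast-like sums held 1844557 UMIs in iIRE and 1566190 in control, and macrophage sums 5060744 and 6356306. With 1 library per group no test was run; intervals are exact Poisson and Clopper-Pearson intervals of 95% and, as amplified UMIs of 1 culture or animal are not replicates, cover counting error only. The computation, in Python 3.11.15, numpy 2.4.6, scipy 1.17.1 and pandas 2.3.3, was tested on simulated data. The cells, the 33 gene lists and the limits were chosen with earlier results of these data known.

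The genes named are the 5 markers given with the rule, members of the lists with at least 50 UMIs, mainly the 2 to 4 highest and those on which a count of 5 or fewer turns, the 12 highest and 12 lowest ratios over macrophages in the lesser library, and the 10 highest and 10 lowest ratios of iIRE over control among genes seen in at least 10% of a library's cells. Other list members were named after their values were seen. Gene models, mitochondrial, ribosomal, hemoglobin, immunoglobulin and T cell receptor genes were not named. Alternatives changed the UMI minimum, the keratin limit, the mitochondrial limit, doublets, depth, averaging, scaling, the pseudocount, the gene filter and the macrophage rule.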

Additional observations from a re-analysis of the deposited data

Results flagged for a closer look

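Mmp12, macrophage elastase, went opposite ways in the classes: its log2 ratio of iIRE over control was 1.43 in osteoclast-like cells and -0.67 in macrophages. The difference was not tested. It had 34.2 CPM in iIRE and 6.38 CPM in control osteoclast-like cells, seen in 5 and 4 cells, with 65.1% of the iIRE UMIs in 1 cell.

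Cells outside the rule carried the same genes. Above the keratin limit, 12 iIRE and 24 control cells had at least 8 of the 14 other osteoclast markers, a number that no macrophage reached. They had medians of 119.5 Acp5 and 118 Ctsk UMIs in iIRE and 65 Acp5 and 98 Ctsk UMIs in control, with 36.5 and 27.5 keratin or Cdkn2a UMIs and 23465 and 26523.5 UMIs in all.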

How the results depend on the processing

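No paired analysis was possible because each group has 1 library, and no library could be left out. Of 73 recomputed shares and counts of genes, 60 stayed close to the reported ones and 13 moved. The log2 ratio of osteoclast-like shares was -0.52 with no keratin limit and -0.29 with only the cells without a Mki67 or Top2a UMI, a setting that, like leaving out the 6 cells at odds with the label, was chosen after seeing the data. With no keratin limit 590 genes were lower than in macrophages, 106 higher in iIRE and 266 lower in iIRE, and of the reported genes only 46 of 310 and 21 of 131 remained, so the iIRE comparison depends on that limit. Cells without a Mki67 or Top2a UMI gave 173 genes higher in iIRE, 87 of them shared. The mean of single-cell CPM gave 198 lower in iIRE. Genes from 200 UMIs, a smaller table by construction, gave 92 higher and 54 lower in iIRE. A pseudocount of 1 CPM gave 730 and 1658 against macrophages and 544 and 279 in iIRE. Scaling by the median ratio moved the median of all genes against macrophages to -0.11 in iIRE and -0.14 in control, with 343 higher and 1003 lower.

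Single ratios turned as follows, and the cause was not tested unless given. With no keratin limit the ratios over macrophages were 1.44 for Ccn1, 0.12 for Sh3pxd2b and 1.06 for Spp1, and Ccn1 was 0.53 with the highest doublet scores removed; the iIRE ratios were -0.59 for Cd81, -0.22 for Ctsl, -0.062 for Top2a, -0.55 for Col1a1, -0.49 for Serpinh1 and -0.70 for the monocyte list, which was -0.50 by the mean of single-cell CPM. Col1a1 was also -0.59 from 5 UMIs, -0.79 at 0.05% of UMIs, -0.35 without the cells at odds with the label and -0.52 without Mki67 or Top2a cells, and Serpinh1 in the same settings -0.38, -0.59, -0.24 and -0.62, and -0.059 at a keratin limit of 0. The fibroblast markers had medians of -0.17, -0.21, -0.10 and -0.20 in those settings, each of which drops the 1 collagen-rich cell. Lyz2, at -0.60 in all cells, was 0.67 from 5 UMIs, 0.96 at 0.05% of UMIs, 2.17 at a keratin limit of 0 and 1.10 without the cells at odds with the label. Prc1 was -0.034 without Mki67 or Top2a cells. No other named ratio or list median past its fold limit reversed in these settings. Depth limits Nyap2, Calcr and Oscar, which had few UMIs per cell.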

Other observations

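Cells with at least 3 Acp5 but at most 2 Ctsk UMIs numbered 106 in iIRE and 61 in control, beside 126 and 108 osteoclast-like cells. A Tyrobp UMI was present in 98.1% of them in iIRE and 95.1% in control, and they had UMIs of a median of 4 and 3 of the 14 other osteoclast markers. Cells with at least 3 Ctsk but at most 2 Acp5 UMIs were different: they numbered 52 in iIRE and 40 in control, and 11.5% and 7.50% of them had a Tyrobp UMI.

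Of 9 heat shock genes tested, 1 was at least 2-fold higher in osteoclast-like cells than in macrophages in both libraries and 1 lower. Over all genes tested, 4.27% were higher and 8.52% lower. The higher gene was the mitochondrial chaperonin Hspd1, with ratios of 1.55 in iIRE and 1.43 in control.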
